A study of Homo sapiens with 9 samples.

Results

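The SLC22A15-overexpressing line of PANC-1 cells was compared directly with the SLC22A10-overexpressing line. PANC-1 is a human cell line from a pancreatic duct carcinoma. The comparison used 6 of the 9 RNA sequencing libraries, 3 from each line, and 14554 of the 16750 genes of the deposited table, those with at least 1 CPM (counts per 1000000 reads, scaled by the authors) in at least 3 of the 9 libraries. Both lines were made with lentiviral plasmids, pLV-SLC22A10 for the SLC22A10 line and pLV-SLC22A15 for the SLC22A15 line, and were selected and kept in puromycin. The series also holds 3 libraries of a vector line that received pLV-EV by the same route. The study's own design sets each overexpressing line against vector, and the vector values stand here beside the results as a background level, with no test.

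The labels call each line clones and do not say how many clones a line holds. Each transgene was carried by 1 line, so the transgene and any other difference between the lines cannot be told apart. Nothing in the labels says that the 3 libraries of a line came from separate cultures, so each p-value weighs a difference against the scatter among libraries alone, and that scatter may be technical.

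SLC22A10 and SLC22A15 encode membrane proteins of the SLC22 family, whose members move organic cations, anions and zwitterions across the plasma membrane. SLC22A15 carries zwitterions such as ergothioneine, and SLC22A10 is a liver-enriched member whose substrates are less well known. RNA sequencing reads the transcripts of the cells that carry the transporter, not the transport itself.

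Library totals were 31.0, 38.0 and 42.9 M reads (M, 1000000 reads) in the SLC22A15 line and 39.3, 35.5 and 28.4 M in the SLC22A10 line, so that 1 CPM stood for 27.8 to 43.4 reads. Each line had 1 library with fewer reads of mitochondrial ribosomal RNA. Its share was 0.0111% in SLC22A15 library 1 against 0.0472% and 0.0547%, and 0.0151% in SLC22A10 library 3 against 0.0790% and 0.0843%. The 20 most abundant genes of a library took 8.51% to 8.90% of the reads in the SLC22A15 line and 10.7% to 11.3% in the SLC22A10 line. Of the duct cell genes, KRT19 stood at 70.2 ± 5.30 CPM (SD, n = 3) in the SLC22A15 line and 216 ± 16.8 in the SLC22A10 line, and KRT18, named after its values were seen, at 95.4 ± 0.373 and 99.2 ± 3.23. Markers of acinar cells summed to 4.68 to 5.91 CPM against 3.18 to 4.03 CPM, of islet cells to 20.9 to 22.7 against 26.8 to 29.2, of hepatocytes to 23.8 to 25.8 against 52.6 to 59.7, and of HEK293T cells, the usual packaging line, to 21.5 to 22.8 against 24.1 to 28.9. Few of the listed markers reached the filter: 1 of 16 for acinar, 5 of 16 for islet, 1 of 16 for hepatocyte and 5 of 12 for HEK293T cells. The 1 tested hepatocyte marker had a mean of 40.1 CPM over the 6 libraries, so that sum was mostly 1 gene. The part of these cell types in the results was not tested.

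Each transduced gene was high in its own line. SLC22A10 (chr11:63289903-63363144, GRCh38) had 80.5, 91.4 and 84.4 CPM in the libraries of the SLC22A10 line, from 8656 reads, and 0 reads in the SLC22A15 line. Against a floor of 3 reads over the 3 SLC22A15 libraries, it was at least 3133-fold higher in the SLC22A10 line. SLC22A15 (chr1:115976513-116070054) had 78.3, 73.3 and 76.1 CPM in the SLC22A15 line and 3.44, 4.12 and 3.96 in the SLC22A10 line, a ratio of 19.8 and a log2 fold change of 3.99 (SE 0.08, adjusted p = 1.1e-12 by limma). The lines did not overlap for either gene, and the exact two-sided permutation test gave p = 0.1 for each, the smallest that 3 against 3 libraries allow. The reads do not tell a transgene from the native gene, and SLC22A15 was also read in vector, at 6.52, 6.36 and 5.46 CPM.

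Among the 9 SLC22 transporters that reached the filter, 4 were higher in the SLC22A15 line and 3 lower, the transduced genes included. SLC22A17, a receptor for lipocalin, fell from 25.7, 23.9 and 27.1 CPM in the SLC22A10 line to 12.2, 9.28 and 9.65 in the SLC22A15 line, a log2 fold change of -1.23 (adjusted p = 2.7e-07). SLC22A18 fell from 6.16 ± 1.93 to 2.82 ± 0.541 CPM. The next members were chosen after their values were seen. The ergothioneine and carnitine transporter SLC22A4 was higher, at 2.75 ± 0.274 against 1.71 ± 0.229 CPM. SLC22A5, the main carnitine transporter, did not pass the test, at 40.8 ± 1.82 CPM in the SLC22A15 line and 38.02 ± 0.573 in the SLC22A10 line.

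Over all genes, 9400 of 14554 (64.6%) differed between the lines at an adjusted p under 0.05 (limma, Benjamini-Hochberg). In bulk RNA, fewer cells with a transcript and less transcript per cell cannot be told apart. Of these, 4591 (31.5% of the genes tested) were higher in the SLC22A15 line and 4809 (33%) were lower, and the median absolute log2 fold change of the genes past the threshold was 0.43. Changes of at least 1 on the log2 scale were fewer and fell mostly in 1 direction: 180 genes (1.24%) were higher by that much in the SLC22A15 line and 681 (4.68%) lower. In 9816 genes (67.4%) the 3 libraries of one line all lay above the 3 of the other. These shares are the background for every count of list members below. When each library was centred on its median, the log2 fold changes shifted up by 0.09 and the split became 5882 higher and 3795 lower, 60.8% higher in place of 48.8%, with 263 higher and 548 lower by at least 1.

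**Figure D1:**
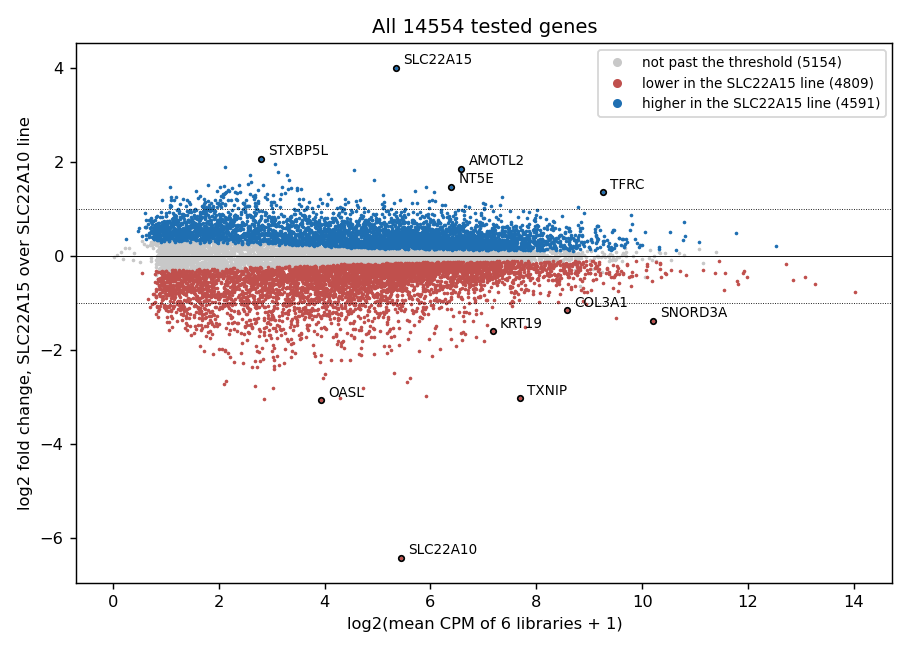
Log2 fold change of the SLC22A15 over the SLC22A10 line (y axis, log2(CPM + 1) scale) against the mean level of the 6 libraries (x axis, log2) for the 14554 tested genes. Blue and red points passed the threshold (4591 higher, 4809 lower in the SLC22A15 line), grey points did not, dotted lines mark a change of 1, and the spread below the lower dotted line (681 genes) is wider than that above the upper one (180 genes).

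Genes are ordered here by the change on the log2(CPM + 1) scale, which ranks low genes below their plain ratio of means. On that scale the largest falls from the SLC22A10 to the SLC22A15 line, apart from SLC22A10 itself, were in OASL, BST2, SNCG, TXNIP and SEMA6B. OASL, an interferon-induced protein that acts with the RNA sensor RIG-I, had 25.8, 26.2 and 27.2 CPM in the SLC22A10 line and 2.16, 2.39 and 2.19 in the SLC22A15 line, a log2 fold change of -3.08 (SE 0.09, adjusted p = 4.9e-11). BST2, or tetherin, which holds budding viruses at the cell surface, had 10.98, 12.2 and 12.5 against 0.254, 0.728 and 0.760 CPM (-3.04, adjusted p = 1.9e-09). SNCG, the synuclein of peripheral neurons, had 33.1, 34.4 and 34.8 against 3.56, 3.20 and 3.13 CPM. For these genes the lowest library of the SLC22A10 line stood far above the highest of the SLC22A15 line. The vector line was lower still in the mean, with 0.406, 0.221 and 1.30 CPM. For BST2, though, the vector libraries (0.308, 0.169 and 0.186 CPM) overlapped those of the SLC22A15 line, and both levels rested on few reads.

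TXNIP, a glucose-responsive arrestin that restrains glucose uptake, had 372, 371 and 362 CPM in the SLC22A10 line and 44.3, 44.8 and 43.4 in the SLC22A15 line, a log2 fold change of -3.03 (SE 0.05, adjusted p = 3.9e-14). It was the most abundant of the 10 largest falls, and its vector level was 56.2 CPM. PDK4, the kinase that turns off pyruvate dehydrogenase in fasting, had 13.5, 14.3 and 11.8 against 1.02, 1.17 and 0.875 CPM. SLC2A3, the neuronal type glucose transporter GLUT3, had 6.90, 5.47 and 7.02 against 0.0635, 0.156 and 0.138 CPM, so that its SLC22A15 level rested on a few reads per library. The semaphorin SEMA6B had 100.1, 101 and 117 against 14.9, 11.99 and 10.6 CPM and the stress gene NDRG1 45.6, 45.3 and 45.04 against 5.02, 5.51 and 6.38. In each of these genes the lines did not overlap. Vector stood at 1.34 CPM for PDK4, 0.114 for SLC2A3, 9.50 for SEMA6B and 5.29 for NDRG1.

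On the same scale, the rest of the 20 largest falls had log2 fold changes from -2.78 (TNFSF10, the death ligand TRAIL) to -2.36 (TJP3, a tight junction scaffold). TNFSF10 fell from 10.03, 11.1 and 9.39 to 0.762, 0.728 and 0.415 CPM. NOVA2, a neuronal splicing regulator, stood at 80.5 CPM in the SLC22A10 and 11.6 in the SLC22A15 line, and the NAD synthesis enzyme QPRT at 6.66 and 0.201. By the ratio of means the order differs. SLC2A3 was 54.2-fold, QPRT 33.1-fold, BST2 20.5-fold, TNFSF10 16.04-fold and PDK4 12.9-fold lower, against 11.8-fold for OASL and 8.33-fold for TXNIP. The QPRT ratio rested on few reads in the SLC22A15 line, at 0.159, 0.260 and 0.184 CPM. KLF9 and GDF15, a glucocorticoid-induced factor and a stress hormone, fell by 2.60 and 2.52 on the log2 scale, and COL5A1, a fibril collagen, by 2.41. CREB3L3, TENT5A, IFIT2 and SBK2 completed the set.

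In the other direction, the largest rise on the log2(CPM + 1) scale apart from SLC22A15 was in STXBP5L, a syntaxin-binding protein of regulated secretion, which had 10.3, 9.98 and 10.2 CPM in the SLC22A15 line and 1.55, 1.57 and 1.98 in the SLC22A10 line, a log2 fold change of 2.05 (SE 0.11, adjusted p = 5.2e-09). TMEM158, a gene found through Ras-induced senescence, had 16.2, 10.4 and 10.5 against 2.30, 2.26 and 2.63 CPM, and FAM71F2 6.16, 5.59 and 5.76 against 0.853, 0.687 and 1.01. By the ratio of means FAM71F2 rose more, 6.87-fold against 5.99-fold. No library of one line reached the range of the other in any of these. The vector means of 10.3, 20.1 and 7.22 CPM were above the means of both lines. For STXBP5L and TMEM158, though, the vector libraries overlapped those of the SLC22A15 line.

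AMOTL2, TNFRSF12A, CTGF, NOG and FOSL1 also stood among the largest rises. AMOTL2, an angiomotin that binds YAP and is itself induced by YAP, had 161, 145 and 141 CPM in the SLC22A15 line and 39.3, 40.1 and 43.1 in the SLC22A10 line, a log2 fold change of 1.84 (SE 0.06, adjusted p = 1.9e-10). CTGF (now CCN2), a secreted matrix protein, had 9.02, 8.71 and 7.12 against 1.63, 2.18 and 1.65 CPM, and TNFRSF12A, the receptor of TWEAK, 40.1, 34.6 and 32.3 against 8.81, 9.07 and 10.04. FOSL1, the AP-1 subunit FRA1, had 44.96, 46.6 and 43.5 against 13.3, 13.8 and 15.3 CPM (1.61, adjusted p = 2.0e-09), and NOG, the BMP antagonist noggin, 15.4, 13.4 and 13.3 against 3.80, 4.78 and 3.31. The order of the lines was the same in all 5 genes: the SLC22A10 line was lowest, the SLC22A15 line between, and vector highest in the mean. Vector means were 170.1 CPM for AMOTL2, 16.1 for CTGF, 44.6 for TNFRSF12A, 71.3 for FOSL1 and 31.4 for NOG.

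NT5E, the surface enzyme CD73 that makes adenosine from AMP, had 118, 123 and 125 against 45.4, 44.4 and 41.05 CPM and a vector mean of 284. SLC30A1, the zinc exporter induced by metal-responsive MTF1, had 86.3, 84.4 and 91.02 against 33.02, 30.3 and 30.4 CPM, with vector at 86.4. The other genes among the 20 largest rises, TBC1D2, ECM2, GPR75, OGN, RYR3, GNG13, SLCO1C1, SPNS2 and the glutamine tRNA gene TRQ-CTG6-1, stood below 15 CPM in the SLC22A15 mean, with log2 fold changes from 1.45 to 1.78. The tRNA gene has near-identical copies, so its count is uncertain.

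**Figure D2:**
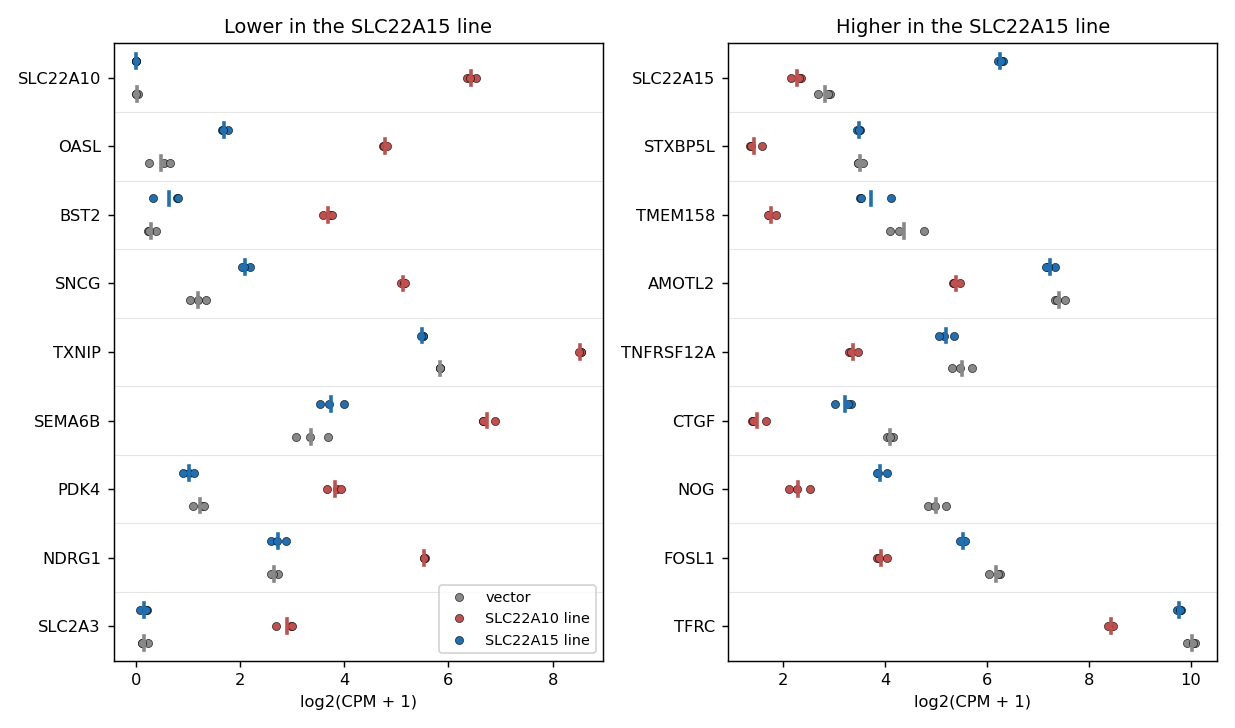
Level of 18 genes in each library on the log2(CPM + 1) scale (x axis), with each point a library, each vertical bar the mean of 3 libraries, and colours for the vector, SLC22A10 and SLC22A15 lines. On the left the SLC22A10 line stands above both others, and on the right it stands below both.

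Among abundant genes, TFRC, the transferrin receptor that takes up iron, was the most abundant with a rise of at least 1. It had 842, 893 and 887 CPM in the SLC22A15 line and 347, 354 and 330.0 in the SLC22A10 line, a log2 fold change of 1.34 (SE 0.05, adjusted p = 1.9e-10). PHLDB2, a cortical adhesion scaffold, had 589.6 against 288 CPM, TGM2, tissue transglutaminase, 227 against 95.7, ODC1, the first enzyme of polyamine synthesis, 216 against 102, and SLC7A5, the large neutral amino acid transporter, 190.4 against 90.8. The abundant genes that fell by at least 1 were COL3A1, with 235, 234 and 233 CPM in the SLC22A15 line and 505, 544 and 524 in the SLC22A10 line, the ER protease ERMP1, with 321 against 659, and 3 small structured RNAs. The U3 small nucleolar RNAs SNORD3A and SNORD3B-1 stood at 649.8 against 1701 and 118 against 321 CPM, and the U1 variant RNVU1-18 at 414 against 1035. These RNAs have near-identical copies, so their counts are uncertain.

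Interferon-stimulated effector genes were lower in the SLC22A15 line as a group. Cells make these antiviral proteins when type I or III interferon signals through its receptors, or when IRF3 acts directly after viral RNA or DNA is sensed. Of the 32 tested members, 30 (93.8%) fell and 0 rose, where 33% of all genes fell. The median log2 fold change was -1.20, beside -0.0020 over all genes, and in 31 of 32 the lines did not overlap.

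Besides OASL and BST2, the IFIT genes, whose proteins bind viral RNA, were among the members that fell most. IFIT2 had 68.97, 68.3 and 63.4 CPM in the SLC22A10 line and 10.3, 11.5 and 11.1 in the SLC22A15 line (-2.50, adjusted p = 3.9e-11). IFIT1, which with the further members below was chosen after its values were seen, stood at 39.7 ± 0.814 and 8.56 ± 0.371 CPM, and IFIT3 at 48.7 ± 1.11 and 10.7 ± 0.828. HERC5, the ligase that attaches ISG15, had 11.4, 10.4 and 10.2 against 1.43, 1.69 and 1.47 CPM. For each of these the SLC22A15 mean was nearer to vector than to the SLC22A10 line, with vector at 7.38, 4.61, 4.20 and 1.16 CPM. LGALS3BP, a secreted glycoprotein, was the most abundant member that fell by at least 1, from 199.7 ± 15.9 to 55.6 ± 3.37 CPM. The MX1 and OAS3 genes differed less, by -0.54 and -0.50, and the members that did not pass were IFIT5, at 25.8 ± 2.80 against 29.1 ± 0.997 CPM, and EIF2AK2, the kinase PKR, at 157 ± 14.5 against 155 ± 12.9.

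**Figure D3:**
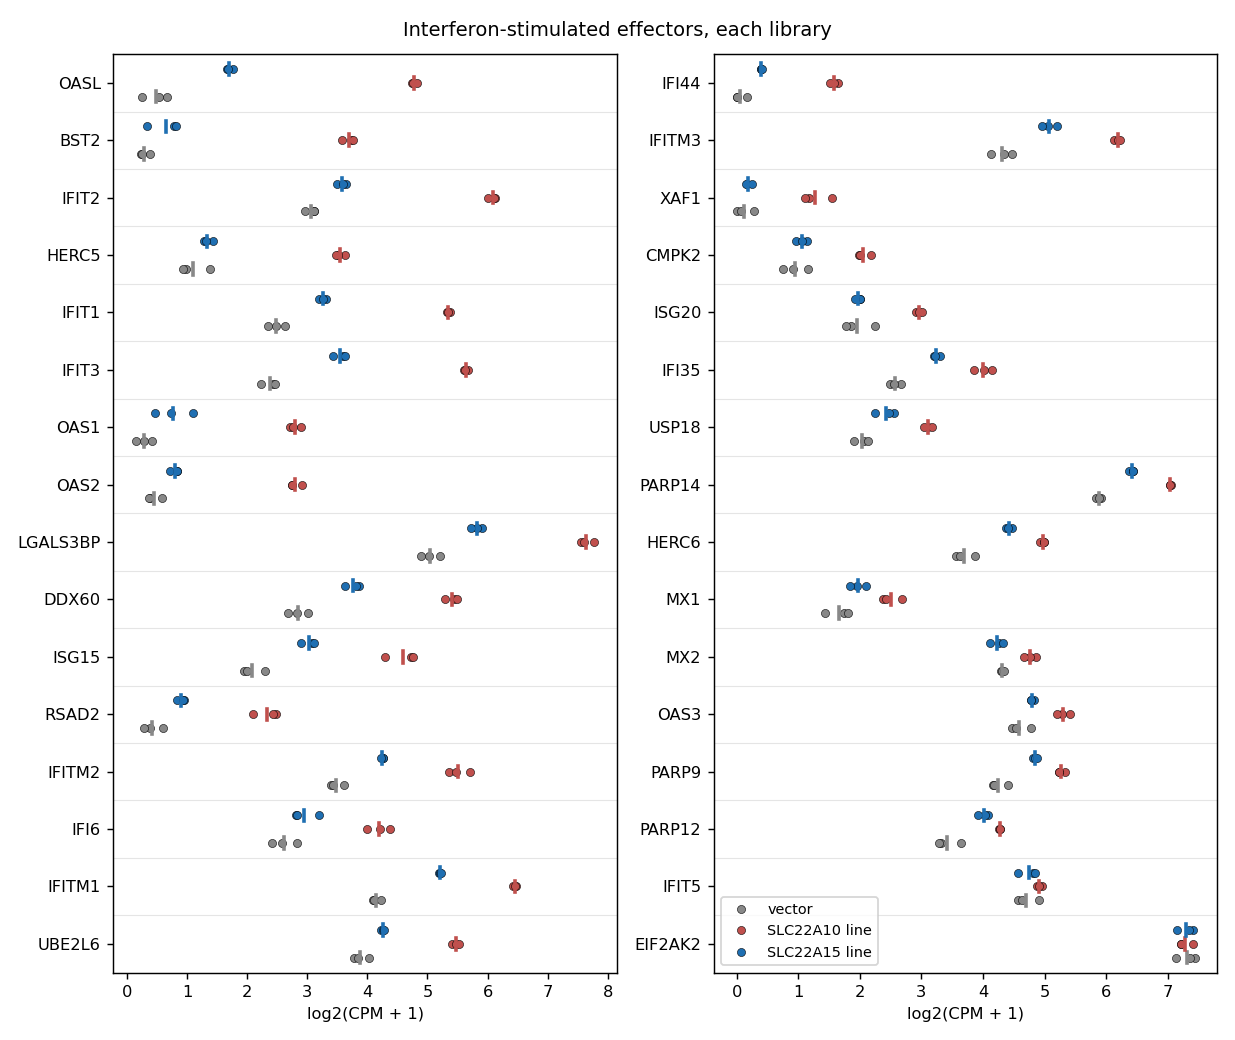
Level of the 32 tested interferon-stimulated effectors in each library (x axis, log2(CPM + 1)), ordered by log2 fold change, with vector in grey, the SLC22A10 line in red and the SLC22A15 line in blue, and bars at the mean of 3 libraries. In 31 of the 32 members the blue points lie left of the red ones, and EIF2AK2 is the member in which the lines overlap.

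The promoters of 6 members are shown because the interferon-stimulated response element, the DNA site of the STAT and IRF factors, is the sequence these genes are known to share. Each line gives the 200 bases before the RefSeq transcription start (GRCh38.p14), 5′ to 3′ on the gene's strand. Capitals mark matches to GAAANNGAA, the core of that element, on either strand, and overlapping matches run together. BST2 (chr19:17405631-17405830, minus strand), IFIT1 (chr10:89392423-89392622, plus strand), IFIT3 (chr10:89327797-89327996, plus strand) and ISG15 (chr1:1013297-1013496, plus strand) fell and held matches. OAS1 (chr12:112906762-112906961, plus strand) fell and held no match, and IFIT5 (chr10:89414368-89414567, plus strand) held matches and did not pass the test. The OAS1 stretch does hold gaaacgaaa, which resembles the pattern with a shorter spacing and is not counted. Its lack of a match therefore does not show that the element is absent.
BST2: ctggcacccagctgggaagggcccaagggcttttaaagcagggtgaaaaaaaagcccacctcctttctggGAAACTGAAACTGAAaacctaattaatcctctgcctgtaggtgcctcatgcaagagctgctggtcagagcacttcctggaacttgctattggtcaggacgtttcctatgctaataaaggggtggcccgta
IFIT1: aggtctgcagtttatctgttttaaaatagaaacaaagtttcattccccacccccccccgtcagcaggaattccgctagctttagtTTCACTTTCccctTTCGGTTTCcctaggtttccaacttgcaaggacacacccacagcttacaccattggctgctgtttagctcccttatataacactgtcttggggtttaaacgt
IFIT3: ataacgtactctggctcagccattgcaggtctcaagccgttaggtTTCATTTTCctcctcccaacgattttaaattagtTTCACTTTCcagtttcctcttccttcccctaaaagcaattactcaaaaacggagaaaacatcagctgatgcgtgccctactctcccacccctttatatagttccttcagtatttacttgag
ISG15: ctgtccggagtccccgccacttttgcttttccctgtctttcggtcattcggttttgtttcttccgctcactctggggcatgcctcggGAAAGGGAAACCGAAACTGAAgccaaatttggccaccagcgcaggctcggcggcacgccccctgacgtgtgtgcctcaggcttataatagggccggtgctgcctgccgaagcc
OAS1: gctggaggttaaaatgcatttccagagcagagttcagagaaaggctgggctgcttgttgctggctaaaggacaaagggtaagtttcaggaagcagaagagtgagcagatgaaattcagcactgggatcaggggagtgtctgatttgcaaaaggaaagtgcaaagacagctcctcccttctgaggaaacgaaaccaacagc
IFIT5: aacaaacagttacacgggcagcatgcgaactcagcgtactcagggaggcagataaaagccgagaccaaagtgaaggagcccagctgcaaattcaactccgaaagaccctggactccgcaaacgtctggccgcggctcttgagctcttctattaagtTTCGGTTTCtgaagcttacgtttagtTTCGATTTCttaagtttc

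In the full window of 250 bases before to 50 after the start, 19 of the 26 list members with a RefSeq promoter entry (73.1%) held at least 1 match, beside 2264 of all 27305 promoters (8.29%) and 706 of 11161 promoters of tested genes (6.33%). The median log2 fold change was -1.24 for the 19 members with a match and -1.01 for the 7 without. A match is a run of letters and not a bound site, and no binding was measured here. The 7 without a match include OAS1 and cannot be taken to lack the element, since the pattern fixes the spacing. OAS1 fell by 2.02 and ISG15 by 1.56 on the log2 scale, one without and the other with matches.

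Of the sensors and signalling genes upstream of these effectors, 13 of 27 tested were lower in the SLC22A15 line and 4 higher, with a median of -0.22. The 4 members with the largest falls were sensors and an adaptor. DDX58 (RIG-I) had 69.3, 67.3 and 60.8 CPM in the SLC22A10 line and 15.7, 16.4 and 18.8 in the SLC22A15 line (-1.90, adjusted p = 1.0e-09), IFIH1 (MDA5) 30.5, 29.8 and 28.96 against 10.8, 12.4 and 13.5, and DHX58 (LGP2) 15.6, 12.8 and 15.9 against 5.84, 4.004 and 3.27. TMEM173 (STING), the adaptor of DNA sensing, fell from 5.32, 4.75 and 6.19 to 0.635, 0.806 and 0.438 CPM. STAT2, a signalling factor chosen after its values were seen, stood at 30.97 CPM in the SLC22A15 line against 55.7 (log2 fold change -0.83, adjusted p = 7.6e-08).

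MHC class I antigen presentation genes, many of which interferon also induces, were lower too, at a smaller size: 12 of 17 fell and 1 rose (median -0.54). HLA-B had 34.3, 34.6 and 36.98 CPM in the SLC22A10 line and 18.3, 17.1 and 17.3 in the SLC22A15 line (-0.97, adjusted p = 8.8e-08). HLA-E fell from 20.4 ± 1.61 to 10.7 ± 0.482 CPM and the peptide trimmer ERAP2 from 62.2 ± 4.01 to 32.9 ± 1.48. TAP2, a subunit of the peptide transporter, went the other way, at 4.28 ± 0.387 against 2.52 ± 0.650 CPM.

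Hypoxia response genes, which HIF factors switch on at low oxygen, were mostly lower in the SLC22A15 line. Of 27 tested, 19 fell and 3 rose, with a median of -0.60. NDRG1 led, followed by ANGPTL4, an inhibitor of lipoprotein lipase, with 27.8, 28.1 and 26.7 CPM in the SLC22A10 line and 5.30, 5.23 and 4.79 in the SLC22A15 line (-2.22, adjusted p = 3.7e-10). STC1, a secreted glycoprotein hormone, had 24.6, 23.01 and 23.6 against 5.02, 5.04 and 4.24 CPM, and DDIT4, the mTORC1 inhibitor REDD1, 142, 145 and 159 against 47.3, 37.9 and 42.1. No library of one line reached the range of the other in these genes, and vector stood at 16.8, 4.41 and 48.2 CPM. The collagen crosslinker LOX and the mitophagy receptor BNIP3, both known HIF targets, were higher in the SLC22A15 line, at 6.24 ± 0.451 against 3.66 ± 0.279 and 1.91 ± 0.267 against 0.862 ± 0.0828 CPM. A core hypoxia element, ACGTG on either strand, was in 12 of 21 promoters of the list (57.1%) and in 21.6% of all promoters (26.5% of those of tested genes). The median log2 fold change was -0.49 for the 12 members with these letters and -0.45 for the 9 without. Such a match is not a bound site, and HIF binding was not tested.

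Of 32 genes of glycolysis and glucose uptake, 20 fell and 6 rose (median -0.25). TXNIP and SLC2A3 had the largest falls, and the brain aldolase ALDOC fell from 9.67 ± 0.292 to 1.63 ± 0.168 CPM and the regulatory kinase PFKFB4 from 18.3 ± 0.524 to 4.88 ± 0.507. The subunits of the mitochondrial pyruvate carrier were higher in the SLC22A15 line, MPC2 at 103 ± 3.17 against 64.03 ± 3.82 CPM and MPC1 at 18.2 ± 1.12 against 12.1 ± 1.53. In fatty acid oxidation and carnitine transfer, where PDK4 also stands, 24 of 33 genes fell and 0 rose, with CPT1C, the neuronal carnitine palmitoyltransferase, at 3.44 ± 0.332 against 10.3 ± 1.57 CPM and CPT1A, the rate-limiting form of most tissues, at 17.2 ± 1.90 against 37.9 ± 2.002.

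Genes of the cell surface and matrix were lower in the SLC22A15 line more often than higher. Collagens, laminins and matrix glycoproteins had 20 lower and 6 higher of 29 (median -0.56). COL5A1 had 13.1, 12.6 and 13.2 CPM in the SLC22A10 line and 1.49, 1.87 and 1.54 in the SLC22A15 line (-2.41, adjusted p = 1.3e-09). COL1A1 fell from 4.24, 5.35 and 5.43 to 0.603, 0.338 and 0.299 CPM and COL6A2 from 116, 119 and 129 to 54.6, 47.5 and 46.5. TGFBI, an integrin ligand, and the basement membrane protein NID2 rose, to 4.29 ± 0.634 from 2.07 ± 0.351 and to 3.67 ± 0.622 from 1.93 ± 0.379 CPM. Of the 16 tested mesenchymal genes, 9 fell and 3 rose (median -0.48). The list shares 3 of its 4 largest falls with the collagens, and the fourth was S100A4, at 227 ± 10.997 against 448 ± 31.8 CPM.

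Fibroblast or stellate cell markers moved the same way. Of the 12 listed, 5 were tested, and all 5 (COL1A1, COL1A2, COL3A1, ACTA2 and RGS5) were lower in the SLC22A15 line, with a summed level of 657 to 693 CPM against 1134 to 1204 CPM in the SLC22A10 line and 450.3 to 496 CPM in vector. RGS5 and COL3A1 made up most of the sum, the other 7 of the 12 were not tested, and the part of such cells in the result was not tested. Immune cell markers summed to 21.9 to 23.0 CPM against 33.8 to 35.9 CPM, with 3 of 12 listed tested. CD14, named after its values were seen, fell from 8.14 to 0.885 CPM. Endothelial markers summed to 33.0 to 38.3 CPM against 64.3 to 70.0 CPM, with 2 tested members lower and 2 higher.

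Among the 16 tested integrin subunits, 9 fell and 2 rose (median -0.59). ITGB4, the subunit of hemidesmosomes, had 14.4, 14.2 and 16.8 CPM in the SLC22A10 line and 3.65, 3.41 and 3.18 in the SLC22A15 line (-1.87, adjusted p = 7.2e-09). ITGA2, a collagen receptor subunit, fell from 5.99 ± 0.375 to 2.76 ± 0.234 CPM, and ITGA10 and ITGAE rose, to 3.86 ± 0.528 and 14.5 ± 0.686 from 1.96 ± 0.325 and 9.66 ± 0.956. The common partner ITGB1, chosen after its values were seen, was at 689 ± 40.7 against 683 ± 26.4 CPM and did not pass the test. Plasminogen activators, matrix metalloproteinases and their inhibitors had 8 lower and 3 higher of 13 (median -0.50). SPINT2, an inhibitor of matriptase, fell from 6.74, 8.07 and 7.55 to 1.71, 1.59 and 1.64 CPM and MMP11, a stromelysin, from 14.3, 16.5 and 20.002 to 4.83, 5.23 and 3.98. PLAUR, the urokinase receptor, was at 9.85 ± 0.778 against 18.1 ± 1.65 CPM and SERPINE2 was higher, at 1.92 ± 0.549 against 0.843 ± 0.188.

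Epithelial junction genes were lower more often than higher. Of 26 tested, 16 fell and 5 rose (median -0.36). CLDN4, a barrier claudin, had 103, 113 and 128 CPM in the SLC22A10 line and 31.5, 26.9 and 25.5 in the SLC22A15 line (-1.995, adjusted p = 1.4e-09), and plakoglobin (JUP) 37.8, 38.8 and 46.01 against 9.24, 9.65 and 7.28. CLDN1, another claudin, had the opposite order, with 52.9, 51.5 and 54.6 CPM in the SLC22A15 line and 30.98, 30.02 and 31.7 in the SLC22A10 line (0.76). Vector stood below both lines for CLDN4 (8.76 CPM) and above both for CLDN1 (119 CPM). Of the 16 tested members of the keratin and mucin list, which also holds other genes such as S100A10, 9 fell and 4 rose. KRT19 fell from 197, 222 and 229 to 76.3, 66.9 and 67.3 CPM and MUC1 from 24.7, 22.5 and 25.7 to 8.54, 8.01 and 8.57, while S100A10 rose to 179 ± 13.8 from 115 ± 3.81.

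Axon guidance genes, the semaphorins, ephrins, netrins and their receptors, counted 30 lower and 9 higher of 47 (median -0.45). After SEMA6B, the receptor EPHB3 fell from 9.46, 9.42 and 12.8 to 2.60, 2.03 and 2.33 CPM and the ligand EFNB3 from 25.9, 28.2 and 28.1 to 7.27, 8.37 and 7.46. The semaphorin SEMA6C fell from 26.4 ± 1.56 to 9.70 ± 1.14 CPM. Against this direction, the semaphorin SEMA3C had 179, 196 and 198 CPM in the SLC22A15 line and 115, 112 and 98.7 in the SLC22A10 line, and the plexin PLXNC1 7.08, 8.48 and 8.52 against 2.92, 2.69 and 2.84 (1.24, adjusted p = 4.6e-07). Among secreted neuropeptides and synucleins, 5 of 10 fell and 2 rose (median -0.48). Neurotensin (NTS) had 23.8, 23.7 and 18.8 CPM in the SLC22A10 line and 3.87, 4.47 and 4.49 in the SLC22A15 line, and SNCB fell from 5.59 ± 1.19 to 1.72 ± 0.0994. Galanin (GAL) rose to 49.9 ± 3.30 from 35.4 ± 2.24 CPM.

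Aldehyde dehydrogenases and retinoid genes had 17 lower and 3 higher of 25 (median -0.41). DHRS3, which reduces retinal and is induced by retinoic acid, had 35.99, 37.7 and 41.4 CPM in the SLC22A10 line and 15.2, 15.2 and 15.5 in the SLC22A15 line (-1.27, adjusted p = 1.3e-08). ALDH6A1, of valine breakdown, fell from 66.1, 60.9 and 59.6 to 26.2, 26.5 and 27.7 CPM. RDH10 and ALDH1A3, which make retinal and retinoic acid, were higher in the SLC22A15 line, at 13.98 ± 0.370 against 7.91 ± 0.631 and 250.4 ± 6.33 against 171 ± 4.39 CPM.

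Genes of growth and division were higher in the SLC22A15 line. Of 44 tested genes of MYC and ribosome biogenesis, 33 (75%) rose and 6 fell (median 0.47), where 31.5% of all genes rose. EBNA1BP2, a factor of large subunit assembly, had 185, 168 and 179 CPM in the SLC22A15 line and 76.5, 88.8 and 82.2 in the SLC22A10 line (1.10, SE 0.06, adjusted p = 9.4e-09), and the nucleolar LYAR 43.2, 53.2 and 53.1 against 26.3, 25.01 and 22.3. The 6 members that fell, MYCL, MXI1, MXD4, MNT, MXD3 and MYC, encode transcription factors of the MYC network and not assembly factors. MXI1, which competes with MYC for MAX, fell from 21.9 ± 1.13 to 10.3 ± 0.683 CPM, MYCL from 6.24 ± 0.614 to 2.54 ± 0.358, and MYC, named after its values were seen, was slightly lower, at 197 ± 3.11 against 219 ± 8.56 (log2 fold change -0.15, adjusted p = 0.011).

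All called genes of the G1/S and DNA replication list were higher in the SLC22A15 line: 32 of 38 (84.2%) rose and 0 fell, with a median of 0.47. CDC25A, the phosphatase that activates CDK2, had 47.1, 46.8 and 49.9 CPM in the SLC22A15 line and 19.1, 20.8 and 17.1 in the SLC22A10 line (1.29, SE 0.08, adjusted p = 1.7e-08). Cyclin E2 (CCNE2) had 26.8, 27.8 and 30.2 against 11.96, 11.7 and 11.3 CPM, the origin loader CDC6 121, 131 and 136 against 67.4, 71.3 and 61.3 and the E2F family member E2F8 22.9, 23.9 and 23.9 against 12.02, 13.7 and 12.1. The lines did not overlap in any of them, and vector stood at 50.6, 24.7, 136 and 22.7 CPM. With SLC22A15 library 1 and SLC22A10 library 3 left out together, 34 members rose and 1 fell.

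Mitosis and G2/M genes had 31 higher and 1 lower of 35, at a smaller size (median 0.28). CDC20, the activator of the anaphase-promoting complex, stood at 368 ± 11.1 CPM in the SLC22A15 line against 213 ± 6.04, and the cytokinesis scaffold anillin (ANLN) at 399 ± 17.2 against 241 ± 15.8. CDC25C was the member that fell, from 54.3 to 45.8 CPM. Replication-dependent histones, made in S phase, had 29 higher and 0 lower of 33 (median 0.28), led by HIST1H3A at 67.5 ± 5.42 against 42.2 ± 4.68 CPM. Histone genes have near-identical copies, so the split of reads among them is uncertain. Of the D cyclins, CDK4/6 and CDK inhibitors, 5 were higher and 4 lower of 14 (median -0.04). The largest change among them was in CDKN1C, the cyclin-dependent kinase inhibitor p57, lower in the SLC22A15 line, at 0.191, 0.156 and 0.369 against 2.35, 1.35 and 2.41 CPM.

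Ribosomal protein genes were mostly lower in the SLC22A15 line. Of 54 cytosolic ribosomal protein genes, 47 were lower in the SLC22A15 line and 1 higher (median -0.36). RPL13A stood at 272 ± 7.70 CPM against 447 ± 35.2 and RPL3 at 535 ± 7.26 against 861 ± 28.4, and RPL9 was the member that rose, at 14.6 ± 0.881 against 9.23 ± 0.846. Many of these genes have processed pseudogenes that can take reads. Heat shock chaperones were mostly higher, with 24 up and 2 down of 31 (median 0.35). CHORDC1, an HSP90 partner, had 74.6, 86.8 and 86.2 CPM in the SLC22A15 line and 41.6, 44.8 and 34.5 in the SLC22A10 line, and DNAJA1 236, 261 and 275 against 149, 150.3 and 138. The small heat shock protein HSPB1 went the other way, at 214 ± 34.7 against 380.4 ± 47.5 CPM. Of 32 genes of the unfolded protein response and ER chaperones, 22 fell and 4 rose, with the ER-bound factor CREB3L1 at 0.677 ± 0.162 against 5.65 ± 0.304 CPM.

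**Figure D4:**
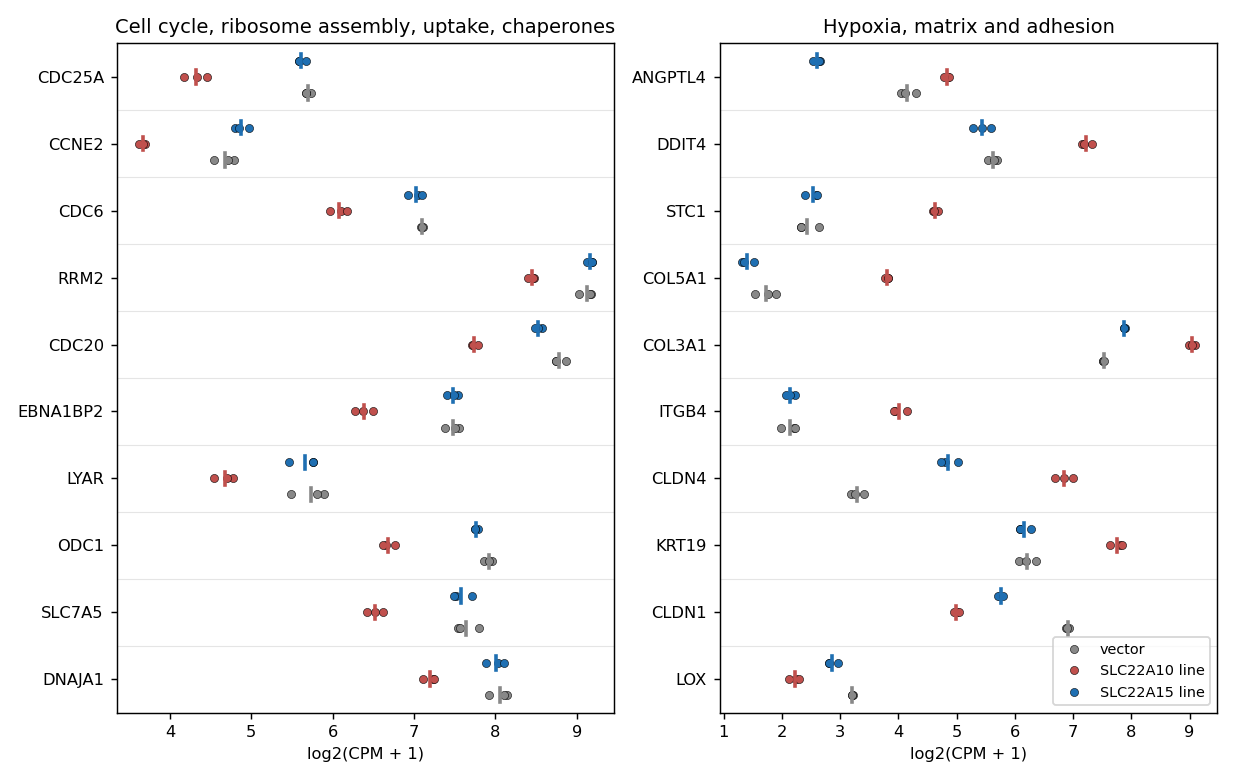
Level in each library (x axis, log2(CPM + 1)) of 10 genes of the cell cycle, ribosome assembly, uptake and chaperones (left) and 10 genes of hypoxia, matrix and adhesion (right), with points for libraries, bars for means of 3, and vector in grey. On the left the SLC22A15 points stand to the right of the SLC22A10 points in all 10 genes, and on the right this holds only for CLDN1 and LOX.

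Amino acid transporters had 15 higher and 5 lower of 26 (median 0.27). SLC7A6, which pairs with SLC3A2 as SLC7A5 does, had 140.3, 142 and 144 CPM in the SLC22A15 line and 66.6, 68.8 and 70.7 in the SLC22A10 line (1.04, adjusted p = 2.4e-09), while the glutamate transporter SLC1A1 fell from 12.7, 11.8 and 14.2 to 3.75, 3.85 and 3.45. Host genes of small nucleolar RNAs had 13 higher and 3 lower of 23 (median 0.26), among them DANCR at 53.4 ± 1.70 against 24.1 ± 1.09 CPM and SNHG17 at 32.3 ± 3.22 against 14.8 ± 0.386. YAP and TEAD factors and targets had 14 higher and 7 lower of 27, with a median of 0.15. Beside AMOTL2, CTGF and NT5E, CYR61 (now CCN1) had 191, 195 and 186 against 102, 92.9 and 98.1 CPM, while the receptor kinase AXL fell from 100.5 ± 2.92 to 52.7 ± 1.24. The letters GGAATG, a TEAD core, were in 5 of 20 promoters of that list (25%) and in 3836 of all 27305 promoters and 1199 of the 11161 of tested genes (10.7%), counted on both strands.

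Immediate early, AP-1 and ERK feedback genes were mostly lower, with 20 lower and 7 higher of 33 (median -0.37). SPRY1, a feedback inhibitor of receptor tyrosine kinase signalling, fell from 58.1, 56.9 and 56.1 to 18.6, 19.99 and 18.03 CPM and the nuclear receptor NR4A1 from 3.32 ± 0.203 to 0.857 ± 0.0962. JUN, like FOSL1, rose, with 103, 103 and 90.3 CPM in the SLC22A15 line against 58.4, 58.8 and 63.5 in the SLC22A10 line and 246, 226 and 227 in vector. The AP-1 letters TGANTCA were in 2 of 26 promoters of the list (7.69%), in 7.76% of all promoters and in 4.42% of those of tested genes.

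The remaining lists are given by their counts, with the background shares of 31.5% higher and 33% lower in view. Xenobiotic metabolism enzymes had 21 lower and 3 higher of 36, lysosome and autophagy genes 26 and 6 of 40, and the nuclear-encoded respiratory chain 25 and 1 of 48. WNT ligands, receptors and targets had 16 lower and 6 higher of 32, p53 and its targets 17 and 7 of 32, and HOX cluster genes 7 and 0 of 12. The mitochondrially encoded genes had 8 lower and 1 higher of 15 (median -0.31), with all mitochondrial genes at 2.14% to 2.36% of the reads in the SLC22A15 line and 2.59% to 3.13% in the SLC22A10 line. Mitochondrial ribosomal proteins had 22 higher and 7 lower of 55, and purine and pyrimidine synthesis 13 and 4 of 25. The next lists are given as numbers higher and lower. Of the transporters, ABC and SLCO genes had 10 and 12 of 25, sodium channels and pumps 5 and 7 of 19, metallothioneins and zinc transporters 7 and 5 of 22, and gemcitabine transport and activation 7 and 3 of 17. In metabolism, fatty acid synthesis and lipid droplets had 7 and 14 of 30, purine breakdown and salvage 5 and 2 of 18, and iron uptake, storage and sensing 6 and 11 of 22. In signalling, EGFR family receptors and ligands had 4 and 9 of 15, BMP and TGF-beta genes 13 and 11 of 35, NF-kB factors, targets and cytokines 12 and 9 of 27, and the circadian clock 6 and 7 of 17. ETS transcription factors had 5 and 10 of 18, and pancreatic ductal lineage and subtype factors 3 and 7 of 18. Under median centring the majority of called members changed direction for SRF-type contractile genes, from 7 higher and 16 lower to 11 and 9, for ATF4 and amino acid response genes, from 11 and 13 to 11 and 9, for cholesterol synthesis, from 6 higher and 9 lower to 11 and 6, and for NRF2 genes, from 13 and 16 to 19 and 13. It also left 4 of the HOX genes lower in place of 7, and put 20 of the BMP and TGF-beta genes higher and 7 lower.

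**Figure D5:**
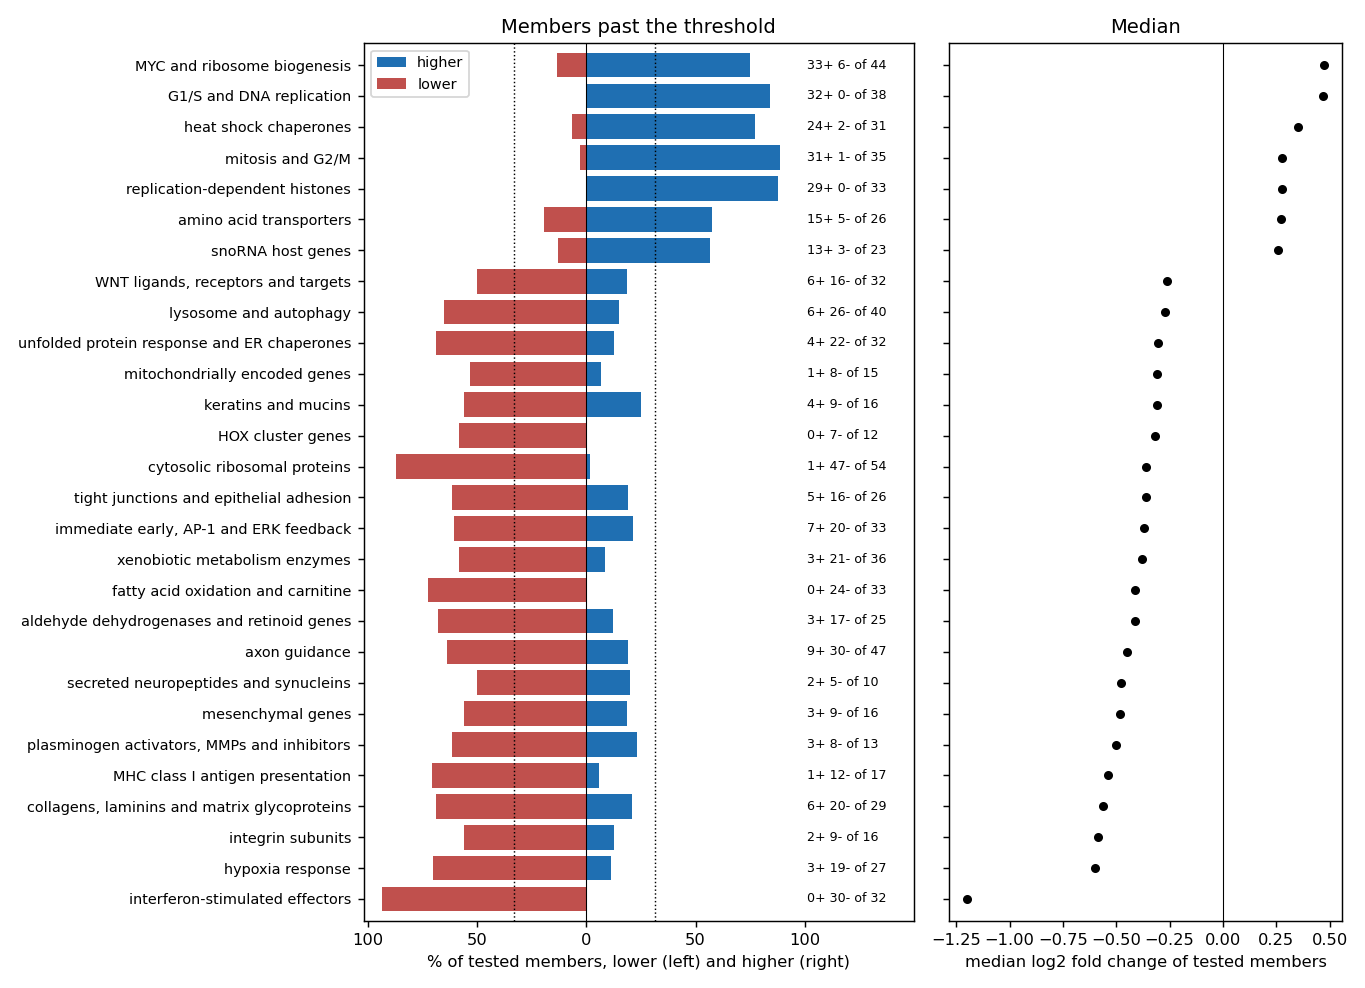
Share of tested members higher (blue, right) or lower (red, left) in the SLC22A15 line (left panel, %, dotted lines at the shares of all genes, counts printed beside) and median log2 fold change of the tested members (right panel) for the 28 lists with the largest absolute median. Interferon-stimulated effectors had the lowest median, -1.20, and MYC and ribosome biogenesis and G1/S genes the highest, 0.47 and 0.47.

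In some genes both lines stood on the same side of vector and farther from it than from each other. These genes were chosen after their values were seen. The epithelial ETS factor EHF had 288, 311 and 321 CPM in the SLC22A15 line, 481, 472 and 451 in the SLC22A10 line and 5.63, 5.26 and 5.22 in vector, so that the lines differed by -0.61 on the log2 scale. The receptor ROR1 stood at 101, 90.3 and 9.88 CPM in the same order, with a log2 fold change of 0.16 between the lines, and the aldehyde dehydrogenase ALDH1A1 at 1104, 1514 and 134 (-0.46). Xanthine dehydrogenase (XDH) was low in both lines, at 1.62 ± 0.315 and 1.95 ± 0.452 CPM against 13.9 ± 0.538 in vector, and did not pass the test between them (-0.17, SE 0.14, adjusted p = 0.32).

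For the genes that differed, the vector mean lay nearer to the SLC22A15 than to the SLC22A10 line in 8198 of 9400 (87.2%), beside 78.5% of all 14554 genes. Among the 180 genes higher by at least 1 in the SLC22A15 line, vector was nearer to that line in 177 (98.3%), and above both lines in 96. Among the 681 lower by at least 1, vector was nearer to the SLC22A15 line in 668 (98.1%), and below both lines in 421. The 861 genes were chosen by the difference between the lines, so these shares are a description.

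The differences were spread over the genome. Median log2 fold changes by chromosome ran from -0.11 for chromosome 19, with 250 genes higher and 436 lower of 1038 tested, to 0.10 for chromosome 13, with 94 higher and 56 lower of 253. Chromosome X had 114 higher and 181 lower of 447, and the mitochondrial genome had a median of -0.31 over 16 genes. Over 245 bins of 10 Mb with at least 20 tested genes, the medians ran from -0.22 to 0.25.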

How the data were processed

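The CPM values, 1 per gene in each library, were deposited by the authors together with, for each overexpressing line over vector, a table of log2 fold changes. The submitters' processing notes name edgeR and the builds hg38 and mm9, with no role for either, while the aligner, the counter, any strand setting and the annotation used were not given in the sources used here. Strand-specific libraries without ribosomal RNA were made, per the labels' protocols. Members and gene lists were chosen with earlier results of these data known.

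Log2(CPM + 1) values of the 6 libraries were fitted with limma 3.58.1 (R 4.3.3, mean trend, 4 residual degrees of freedom), with Benjamini-Hochberg adjustment over 14554 genes and a threshold of 0.05. A fold change is on this scale and understates low genes, and SLC22A15 over SLC22A10 is positive where the SLC22A15 line is higher. P-values are two-sided. In each library 100% of the CPM values were whole multiples of 1 read (within 0.1 read). edgeR 4.0.16 and DESeq2 1.42.0 were run on the reads recovered in that way. For genes over a mean of 5 CPM, edgeR's log2 fold change lay within 0.00683 of the difference between the 2 fold changes of the authors' deposited tables. Counting error at 1 CPM was 15.2% to 19.0% (SD). Symbols came from the deposited tables (187 genes had none), positions and promoters from RefSeq (GRCh38.p14). Replicates of a line differed by more than sampling noise (chi-square per gene of 2.50 to 13.5).

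Genes named were SLC22A10 and SLC22A15, the 20 largest changes each way (past the threshold, a mean of at least 5 CPM in the higher line, a gene symbol that is no placeholder and lines that do not overlap), the 5 most abundant each way with a change of at least 1, and up to 4 called members and 2 in the other direction of each list with at least 8 tested members. Of 61 lists, 54 had that many, and the first 12 by absolute median are described in full. The script was tested on simulated data.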

Additional observations from a re-analysis of the deposited data

How the results depend on the processing

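The counts of genes past the threshold stayed within 1.5 times the values reported (4591 higher, 4809 lower) in the fit of all 9 libraries, with a pseudocount of 0.25 CPM, without the expression filter or with one of 5 CPM, with centring, with edgeR and DESeq2 on recovered reads (4593 and 4789, 4533 and 4661) and with a model term that marks each library low in mitochondrial ribosomal RNA. Leaving out 1 library at a time gave 4053 to 4656 higher and 4335 to 4891 lower, and leaving out both libraries with little mitochondrial ribosomal RNA, an alternative chosen after seeing the data, 4924 and 5060. In each of these settings every gene called both there and in the test reported kept its direction (9051 shared genes in the last). Only the number of changes of at least 1 on the log2 scale (180 higher, 681 lower) depended on how low genes were scaled: a pseudocount of 0.25 CPM gave 409 higher, edgeR 551 and DESeq2 557, with 1052 lower by edgeR and 1042 by DESeq2, since a pseudocount of 1 CPM shrinks the changes of low genes. Leaving out 1 library gave 179 to 189 higher and 660.0 to 735 lower by at least 1. SLC22A10 and SLC22A15 kept their calls in all settings (log2 fold changes without 1 library of -6.47 to -6.38 and 3.93 to 4.04). The majority counts of the 18 lists with the largest absolute medians stayed within 1.5 times in the same settings. Of 292 named genes, HPRT1, UQCRFS1 and SSTR2 lost their call in at least 1 setting and none reversed. At 1 CPM a gene rested on 27.8 to 43.4 reads in a library, which limits calls in genes of that level. No paired analysis was possible because the columns carry the numbers 1 to 3, which match none of the suffixes (A1, A2, B1) in the labels.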
